A study of Homo sapiens with 6 samples.

Results

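The genes described here are 525 long intergenic noncoding RNA (lincRNA) genes that were expressed in AZ-521 cells, out of 7629 genes with that annotation in the table. They were chosen by the table's own gene class and by level: at least 1 FPKM (fragments scaled to gene length and library size) in at least 3 of the 6 samples. Of the lincRNA genes, 4465 were listed at 0 in all samples, 3164 were above 0 in at least 1 sample and 532 reached the level. From these, 7 genes were left out by name, because they belong to the host genes of small nucleolar RNAs or to 1 transcript set aside. The level rule used the same values that are compared below, so the levels are given as a description.

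The study asked how platycodon D (PD), a saponin from the balloon flower root, acts on human AZ-521 cells, which the labels call gastric cancer cells of the stomach with wild-type genotype. Cells received 10 µM PD in 3 samples, or the solvent DMSO in the other 3, and polyadenylated RNA was sequenced at 48 h in both groups. Whether the replicates came from different cultures is not stated in the labels, and the p-values reflect no more than the variation among these 6 samples, possibly technical. AZ-521 has been matched by cell banks to a duodenal carcinoma line. Of 5 epithelial marker genes none reached the level tested, and the keratin genes KRT18 and KRT19 were listed at 0 in every sample. Of 10 stomach markers, 5 were listed at 0 in every sample and none reached the level. Of 5 intestinal markers, 1 reached the level, the factor CDX2 with a mean of 1.22 FPKM, and the other 4 had means from 0 to 0.247 FPKM. Of 4 mesenchymal markers, 1 reached it, the filament protein vimentin (VIM) with a mean of 90.2 FPKM, and the collagen and decorin genes COL1A1, COL1A2 and DCN had means from 0.0162 to 0.628 FPKM.

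LincRNAs are transcribed by RNA polymerase II, spliced and usually polyadenylated like messenger RNAs, but carry no long conserved reading frame and are annotated as lying between coding genes. Of the 525, 55 nonetheless shared exonic bases with a coding gene in the annotation, 19 of them on the same strand. Some have known roles: NEAT1 is the scaffold of paraspeckles, MALAT1 gathers in nuclear speckles, NORAD binds Pumilio proteins, and several are primary transcripts from which microRNAs are cut. Many others are known only by a clone name and lie close to the start or the end of a coding gene.

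In 19 of the 525 genes, a microRNA gene lay inside the member on the same strand. At least 1 mature microRNA of each host that rose or fell is shown first, because hosts that share a seed can be compared, and further microRNAs of some of these hosts are not shown. The capitals mark the seed, bases 2 to 8 from the 5′ end, through which a microRNA pairs with its targets. All sequences are those of RefSeq (GRCh38.p14). Only the host transcripts were measured, not the mature microRNAs. MIR222HG holds a pair with a shared seed, miR-221 and miR-222.
miR-221-3p: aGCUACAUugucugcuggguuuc
miR-222-3p: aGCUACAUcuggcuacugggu
The let-7 hosts AL158152.2 and MIRLET7BHG both hold let-7a, and each holds further let-7 copies with the same seed.
let-7a-5p: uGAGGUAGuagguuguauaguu
let-7b-5p: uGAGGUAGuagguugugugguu
let-7d-5p: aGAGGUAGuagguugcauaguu
let-7f-5p: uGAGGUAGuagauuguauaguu
AC016831.6 holds miR-29a and miR-29b, and LINC-PINT holds miR-29b, with 1 seed between them.
miR-29a-3p: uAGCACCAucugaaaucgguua
miR-29b-3p: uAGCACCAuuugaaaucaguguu
MIR22HG, MIR137HG and MIR503HG hold microRNAs whose seeds are shared with none of the others shown.
miR-22-3p: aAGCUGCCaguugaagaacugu
miR-137-3p: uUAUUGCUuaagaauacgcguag
miR-503-5p: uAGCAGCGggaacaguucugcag

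A pair of promoters is shown, although RNA levels alone do not measure transcription from them. The first is that of MIR222HG, the called microRNA host with the largest change. The second is that of INSIG1, which lies head to head with the member AC144652.1. Each runs from 250 bases before to 50 bases after the RefSeq start on the strand of the named gene. Capitals mark matches to the 7 motifs searched on both strands. The MIR222HG promoter lies at chrX:45770218-45770517, minus strand, and holds the reverse form of CCAAT at 58 and at 43 bases before the start.
MIR222HG promoter: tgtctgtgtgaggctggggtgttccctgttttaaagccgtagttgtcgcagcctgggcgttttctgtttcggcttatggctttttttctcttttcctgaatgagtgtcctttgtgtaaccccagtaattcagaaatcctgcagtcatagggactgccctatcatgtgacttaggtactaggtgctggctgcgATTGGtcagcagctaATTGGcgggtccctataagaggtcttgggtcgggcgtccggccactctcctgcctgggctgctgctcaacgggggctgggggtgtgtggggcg
The INSIG1 promoter lies at chr7:155297628-155297927, plus strand, and holds the reverse form of CCAAT at 170, the E-box CACGTG at 55 and TATAAA at 27 bases before the start.
INSIG1 promoter: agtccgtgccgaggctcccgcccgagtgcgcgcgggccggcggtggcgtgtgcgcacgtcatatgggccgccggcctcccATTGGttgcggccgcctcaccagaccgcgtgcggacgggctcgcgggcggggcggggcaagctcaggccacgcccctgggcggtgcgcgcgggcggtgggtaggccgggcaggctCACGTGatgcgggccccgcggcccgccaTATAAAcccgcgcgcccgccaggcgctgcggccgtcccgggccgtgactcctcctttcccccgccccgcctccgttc
Of the members, 113 had a RefSeq promoter under their name, and in 83 the start lay within 300 bases of the table's. CCAAT was found in 27.7% of these 83 against 34.6% of all 35116 RefSeq promoters of that length, CACGTG in 9.64% against 7.26%, and TATAAA in 9.64% against 11.5%. The AP-1 motif TGANTCA was found in 6.02% against 7.71%, TGACNNNGC of the antioxidant element in 20.5% against 13.3%, and GAANNTTC of the heat shock element in 7.23% against 6.77%. The sterol element TCACNCCAC was found in none of the 83 and in 1.13% of all promoters. These matches describe letters in a window and were not tested.

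The members were expressed at low levels. Their median level was 1.96 FPKM, against 7.62 FPKM for the 10662 coding genes tested, and 442 of the 525 had a mean below 5 FPKM. The median member had 36.5 reads per sample. Members had a median exonic length of 990 bases and 2 exons, against 5098 bases and 11 exons for coding genes, and 31.6% were single-exon genes, against 2.21%. Together they took between 0.519% and 0.556% of the reads in the DMSO samples and between 0.569% and 0.654% in the PD samples, so the groups did not overlap. Such totals weigh abundant members most, AL161431.1 (described below) among them, and include members that reached the level in a single group. They do not describe the typical member, as the median difference over the members was 0.03 on the log2(FPKM + 1) scale. Reads over all genes numbered between 14915538 and 16341687 per sample. In bulk RNA, fewer cells of a kind and less RNA per cell cannot be told apart.

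Whether a gene entered depended on the groups in part. In 288 members every sample reached 1 FPKM. A further 189 had samples of both groups at the level, while 24 passed only through the 3 DMSO samples and 24 only through the 3 PD samples. Members of the last kinds had to differ between groups, so neither their separate groups nor their tests are support. Of the members described below, AC005550.1, LINC02587 and MIR137HG passed only through DMSO, and AC003092.2, AC009041.2, AC016831.6, AC026803.2, AC120498.4, AF241725.1, AL645608.7 and LINC-PINT only through PD. For the same reason counts over all members are given beside counts over the 288. At the threshold, the third highest value was 1.00 FPKM in LINC01385, AC068870.2 and Z93241.1, just inside. Just outside, it was 0.992 FPKM in AC114763.1, 0.994 FPKM in AL442128.2 and 0.997 FPKM in AC008736.1. The first principal component of the members held 61.3% of their variance and separated PD from DMSO, and the second, with 12.8%, set PD replicate 3 furthest from the rest. Deviations from the group mean went with GC content in most samples. Across members, Spearman's rho for the DMSO samples, by replicate number, was -0.325, 0.147 and 0.246, and for the PD samples 0.234, -0.0299 and -0.176. Over all genes the values for DMSO were -0.637, 0.462 and 0.535, and those for PD 0.606, 0.021 and -0.524. Results were also computed without DMSO replicate 1 and PD replicate 3, in which rho was lowest.

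With PD, 84 of the 525 members rose and 79 fell, by the criterion of an adjusted p below 0.05 (limma on log2(FPKM + 1), Benjamini-Hochberg adjustment over 13579 genes). Among all genes tested, 14.3% rose and 12.7% fell, against 16% and 15% of the members. Called genes, which also changed at least 2-fold on that scale, were 31 higher and 11 lower members, or 5.9% and 2.1%, where 2.84% and 0.979% of all genes were called. Among the 288 members at the level in every sample, 40 rose and 41 fell, with 15 called higher and 8 lower. All genes with the same property rose in 14.1% and fell in 12.9% of cases, and were called higher in 2.35% and lower in 0.891%, against 5.21% and 2.78% of the 288 members. The 3 DMSO and 3 PD values did not overlap in 228 members, or 43.4%, against 44.4% of all genes. The median difference over the members was 0.03 on the log2 scale, against 0.00 over all genes tested.

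**Figure D1:**
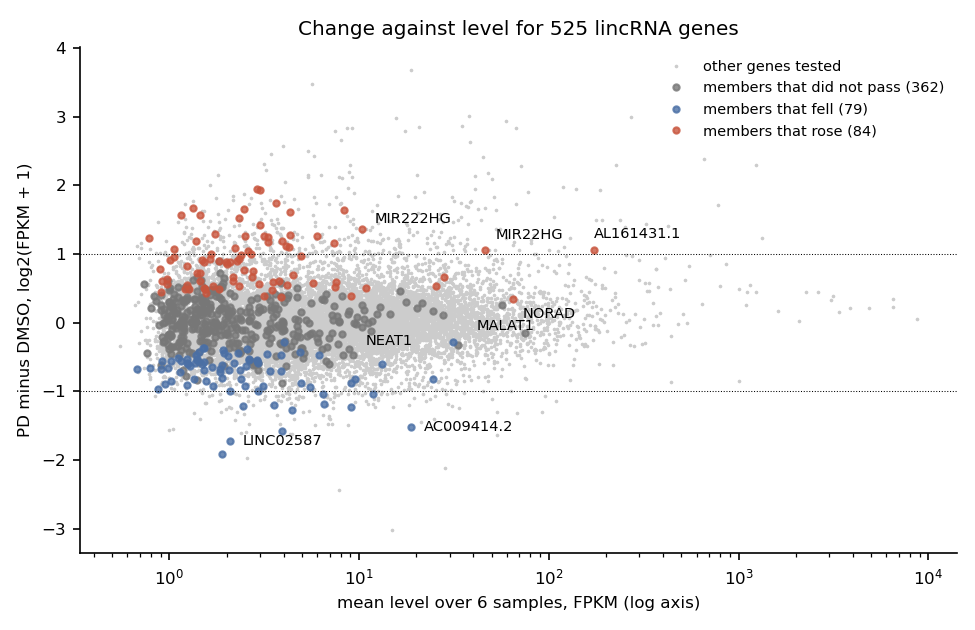
Difference between PD and DMSO on the log2(FPKM + 1) scale against the mean level over 6 samples (FPKM, log axis) for 525 lincRNA genes (large points, coloured by whether they rose, fell or did not pass) and the other genes tested (small grey points). Dotted lines mark a 2-fold change; most of the 84 members that rose and 79 that fell lie below 5 FPKM, with AL161431.1 furthest to the right.

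Leaving out 1 sample at a time gave between 52 and 84 rises and between 40 and 64 falls. Rises were 52 without PD replicate 2. Falls were 40 when DMSO replicate 2 was left out and 47 for DMSO replicate 3, and 46 and 41 for the first and second PD replicates. Without both DMSO replicate 1 and PD replicate 3, 94 members rose and 71 fell. The FPKM denominators differed from the gene totals, and when totals were made equal instead, 68 members rose and 98 fell, and the share of called members that were higher was 60% against 73.8%. That scaling shifted the median of all genes by -0.10.

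Among the most abundant members, AL161431.1 and MIR22HG were called higher. AL161431.1 (chr13:109269634-109278512, plus strand, 2 exons) had the highest level of all 525, with 117, 106 and 113 FPKM in the DMSO samples and 205, 249 and 251 FPKM in the PD samples. All PD values were above all DMSO values, and the mean rose from 112 ± 5.76 to 235 ± 26.1 FPKM (SD, n = 3), a difference of 1.06 ± 0.11 (SE) on the log2 scale with an adjusted p of 0.000963. Its nearest coding gene, IRS2, which encodes an adaptor of the insulin receptor, starts 516934 bases away and rose by 1.05 (adjusted p = 0.000368). MIR22HG (chr17:1711493-1717174, minus strand), the host of miR-22, had 28.9, 30.0 and 29.4 FPKM with DMSO and 59.0, 64.9 and 64.1 FPKM with PD. It rose by 1.06 ± 0.08 on the log2 scale (adjusted p = 0.000298), with the groups far apart relative to the spread within them. WDR81 lies at chr17:1716523-1738599 on the opposite strand, so its span overlaps that of MIR22HG. It is not stated whether counting used the strand. WDR81 rose by 1.01 (adjusted p = 0.00172). TLCD2, which starts 1055 bases after the end of MIR22HG on its strand, fell by 0.51 (adjusted p = 0.0132).

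Most other abundant members differed less between the groups. NORAD had 62.6, 53.7 and 53.8 FPKM with DMSO and 68.1, 72.2 and 76.2 FPKM with PD. Its groups did not overlap and it rose by 0.34 ± 0.10 (adjusted p = 0.0373). That call was lost on leaving out any 1 sample other than DMSO replicate 1, with adjusted p between 0.0657 and 0.1305, and with equal totals (0.22, adjusted p = 0.0672) or quantile scaling (0.19, adjusted p = 0.143). MALAT1 had 61.3, 51.6 and 41.1 FPKM with DMSO and 53.7, 78.1 and 53.4 FPKM with PD. Those values overlapped and the difference of 0.26 did not pass (adjusted p = 0.361). SFTA1P, at 70.2 to 83.0 FPKM with DMSO and 56.1 to 95.1 FPKM with PD, overlapped as well (-0.15, adjusted p = 0.588).

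The remaining members among the 10 most abundant differed by 0.66 or less. AC004233.3, with 20.7 to 22.4 FPKM in DMSO and 33.4 to 36.7 FPKM in PD, rose by 0.66 (adjusted p = 0.0019). AC015813.1 rose by 0.53 (adjusted p = 0.0296), and LNCAROD, a transcript named as an activator of DKK1, a Wnt inhibitor gene, fell by 0.28 (adjusted p = 0.0311). Neither call held in every leave-out. For AC015813.1 the adjusted p was 0.0695 and 0.0957 when DMSO replicates 2 and 3 were left out, and 0.0595 and 0.0679 for PD replicates 1 and 2. For LNCAROD it lay between 0.0634 and 0.1015 without any 1 sample other than DMSO replicate 1. AC010735.2, head to head with IRS1, did not pass (-0.32, adjusted p = 0.115), nor did PURPL, a transcript induced by p53 (0.11, adjusted p = 0.609).

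Of 10 members on lists of well studied transcripts, 3 passed, NORAD and LINC-PINT upward and LINC00467 downward, where 27.1% of all genes passed in either direction. NEAT1 had 8.29, 11.5 and 9.17 FPKM with DMSO and 8.86, 11.4 and 8.28 FPKM with PD, with overlapping groups (-0.02, adjusted p = 0.940). The sign of that difference changed with the samples and weights used. Of 14 genes for paraspeckle proteins, DAZAP1 (0.36) and TARDBP (0.27) rose, while PSPC1 (-0.60), a core protein of the body, fell. PVT1, which lies next to MYC, had 13.2 to 17.8 FPKM with DMSO and 16.9 to 22.8 FPKM with PD and did not pass (0.31, adjusted p = 0.152). CRNDE (-0.15), CYTOR (0.29) and FTX (0.22), a transcript of the X inactivation centre, did not pass. LINC00467, which encodes a short mitochondrial protein, fell by 0.29 (adjusted p = 0.0453), a call lost on leaving out any 1 sample (adjusted p between 0.0679 and 0.121). Genes of the machinery that processes noncoding RNA are named here where they passed. Of 20 nuclear exosome genes 0 rose and 2 fell (EXOSC8 by 0.44 and EXOSC2 by 0.30). Of 14 Integrator genes 0 rose and 4 fell (INTS1, INTS5, INTS7 and INTS12). Of 7 genes of the microRNA pathway (DROSHA, DGCR8, XPO5, DICER1, TARBP2, AGO1 and AGO2) 0 rose and 0 fell. Beside these counts and those of the paraspeckle proteins, 14.3% of all genes tested rose and 12.7% fell. Differences between these lists and all genes were not tested.

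Among the microRNA hosts, 6 of 19 rose, 2 fell and 11 did not pass, where 14.3% of all genes rose and 12.7% fell. Of these 8, LINC-PINT, AC016831.6 and MIR137HG entered through 1 group alone and had to differ. MIR222HG (chrX:45745211-45770274, minus strand) had 5.82, 5.64 and 4.45 FPKM with DMSO and 11.4, 16.9 and 18.1 FPKM with PD. Every PD value was above every DMSO value, and the mean went from 5.31 ± 0.743 to 15.5 ± 3.56 FPKM (SD, n = 3), a rise of 1.37 ± 0.18 (adjusted p = 0.00225). The miR-221 and miR-222 it holds are known to target the cell cycle inhibitor p27.

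Of the 3 hosts that hold a let-7 gene, MIRLET7BHG and AL158152.2 rose and MIR99AHG did not pass. MIRLET7BHG had 2.47, 2.72 and 2.56 FPKM with DMSO and 4.77, 4.85 and 3.72 FPKM with PD, a rise of 0.60 ± 0.11 (adjusted p = 0.00918). AL158152.2 had 2.77, 2.25 and 1.93 FPKM with DMSO and 5.82, 8.31 and 4.54 FPKM with PD, on 8 to 10 and 16 to 30 reads, and rose by 1.10 ± 0.20 (adjusted p = 0.00738). In both, the groups were separate. MIR99AHG, which holds let-7c with the same seed, differed by 0.03 (adjusted p = 0.846), and MIR4458HG, whose miR-4458 carries that seed too, did not pass (0.06, adjusted p = 0.769).

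The hosts of miR-29 lie on top of each other, as AC016831.6 and LINC-PINT share 2010 exonic bases on the same strand. Their values are therefore not independent, and it is not known how shared reads were assigned. AC016831.6 had 0.375 to 0.399 FPKM with DMSO and 1.33 to 1.91 FPKM with PD (0.96 ± 0.14, adjusted p = 0.00351). LINC-PINT, a transcript induced by p53, had 0.344, 0.461 and 0.359 FPKM with DMSO and 1.19, 1.45 and 1.53 FPKM with PD (0.78 ± 0.13, adjusted p = 0.006). Both reached 1 FPKM only in the PD samples, so the level rule fixed the separation of their groups. Another entry named LINC-PINT, of a different gene class and not a member, had 0.201 to 0.292 FPKM with DMSO and 0.195 to 0.377 FPKM with PD. Its groups overlapped, and it was below the level tested.

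MIR137HG, the host of miR-137, a microRNA of neural differentiation, was the host with the largest fall. It had 1.55, 1.51 and 1.35 FPKM with DMSO and 0.227, 0.408 and 0.186 FPKM with PD, on 171 to 185 and 20 to 45 reads. It fell by 0.96 ± 0.14 on the log2 scale (adjusted p = 0.00314), and since it reached 1 FPKM only in the DMSO samples, the level rule fixed the separation of its groups. MIR503HG fell by 0.40 at the edge of the threshold (adjusted p = 0.04998), and the adjusted p was between 0.0720 and 0.1604 without any 1 sample other than DMSO replicate 3. MIR34AHG, the host of the p53 target miR-34a, had 2.31 to 3.38 FPKM with DMSO and 2.86 to 3.74 FPKM with PD and did not pass (0.20, adjusted p = 0.318).

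**Figure D2:**
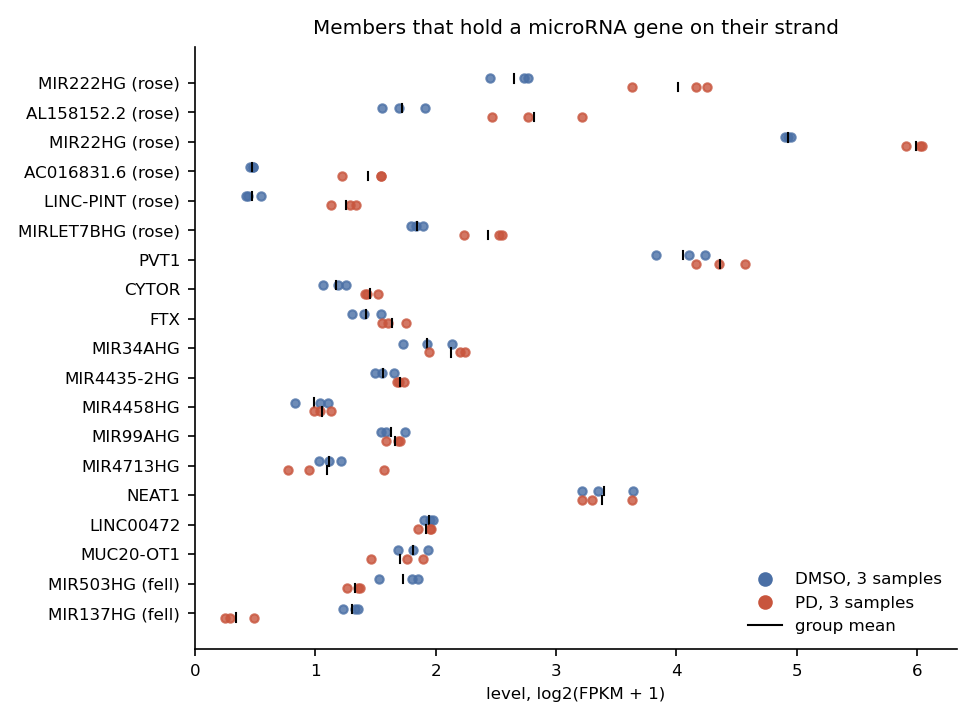
Level of the 19 lincRNA genes that hold a microRNA gene on their strand, as log2(FPKM + 1), in 3 DMSO (blue) and 3 PD (red) samples, with group means as black ticks, ordered by the difference between groups. Of the 6 hosts that rose and the 2 that fell, LINC-PINT, AC016831.6 and MIR137HG reached the level in 1 group only, and MIR22HG has the highest level.

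The 11 members called lower were led by a neighbouring pair at MEOX2, a homeobox transcription factor gene. LINC02587 (chr7:15688378-15695491, plus strand) starts 1566 bases from the start of MEOX2 and runs the other way. It had 3.55, 3.62 and 4.06 FPKM with DMSO and 0.467, 0.280 and 0.574 FPKM with PD, on 38 to 50 and 3 to 6 reads, and fell by 1.72 ± 0.12 (adjusted p = 0.000257). AC005550.1 (chr7:15689075-15690854, minus strand) ends 2263 bases before the start of MEOX2 on the same strand. It had 24, 16 and 15 reads with DMSO and 2, 1 and 0 reads with PD, and its fall of 1.90 ± 0.22 (adjusted p = 0.00141) depends in size on the pseudocount of 1. The members lie across each other on opposite strands without a shared exonic base, and MEOX2 itself had 30.9, 24.1 and 26.7 FPKM with DMSO and 2.58, 2.53 and 2.27 FPKM with PD, a fall of 3.02 ± 0.11 (adjusted p = 2.33e-05). The groups of MEOX2 were separate, while those of both members were separated by the level rule, which they passed only through DMSO. Elsewhere, 37 members shared exonic bases with a coding gene on the opposite strand, and since it is not stated whether counting used the strand, reads of such pairs cannot be told apart.

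A similar arrangement held at OSR2, a zinc finger transcription factor gene. AC016877.3, a single-exon gene on chromosome 8, ends 305 bases before OSR2 on its strand and lies head to head with STK3. It had 6.46, 6.75 and 6.63 FPKM with DMSO and 1.16, 2.45 and 3.18 FPKM with PD, a fall of 1.27 ± 0.22 (adjusted p = 0.00699). OSR2 had 9.62, 10.3 and 11.8 FPKM with DMSO and 3.84, 2.98 and 2.73 FPKM with PD, a fall of 1.47 ± 0.13 (adjusted p = 0.000506), while STK3, a kinase of the Hippo pathway, differed by 0.09 (adjusted p = 0.685). Groups were separate for the member and for OSR2.

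For the other members called lower, no coding gene head to head with them, or just before or after them on their strand, was seen to fall. AC009414.2 (chr2:36354749-36355114, minus strand), head to head with CRIM1 at 812 bases, had 28.1, 28.8 and 27.6 FPKM with DMSO and 8.01, 7.65 and 12.6 FPKM with PD. It fell by 1.52 ± 0.17 (adjusted p = 0.0013), whereas CRIM1, a membrane protein that binds bone morphogenetic proteins, had -0.35 and did not pass (adjusted p = 0.062). LINC02331 fell from 15.3 to 17.6 FPKM with DMSO to between 7.03 and 7.54 FPKM with PD (-1.04 ± 0.09, adjusted p = 0.000477), and its nearest coding gene, BMP4, whose start is 107879 bases away, differed by -0.05 (adjusted p = 0.689). AC124854.1 fell by 1.58 ± 0.16 (adjusted p = 0.000963). Its nearest coding gene, the nuclear receptor gene NR2F1, starts 922361 bases away and fell by 1.07. LINC02298 (-1.22), LINC01547 (-1.21), LINC01836 (-1.20), LINC01331 (-1.18) and GS1-124K5.4 (-1.03) completed the list. LINC01547 ends 825 bases before ITGB2 on its strand, and ITGB2 was below the level tested. It also lies head to head with FAM207A, which differed by 0.15 (adjusted p = 0.641).

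**Figure D3:**
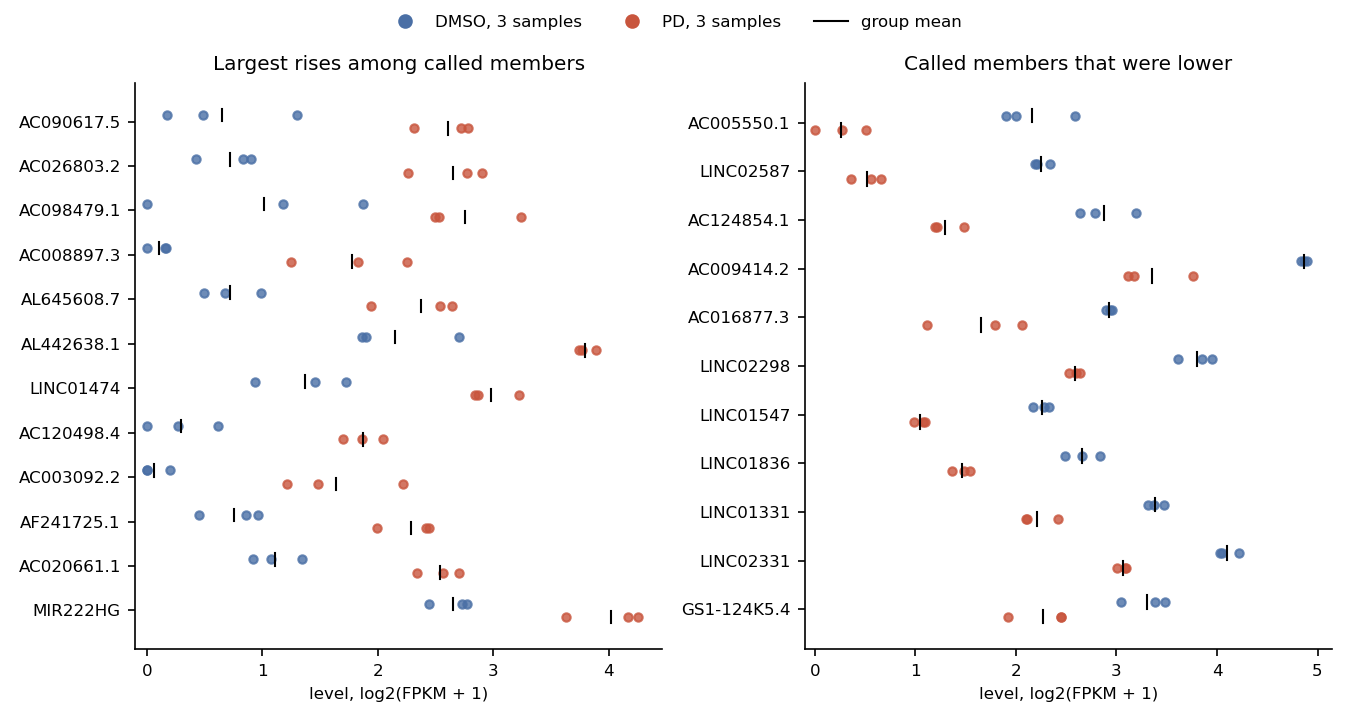
Level of the 12 called members with the largest rise (left) and of the 11 called lower (right), as log2(FPKM + 1), in 3 DMSO (blue) and 3 PD (red) samples; black ticks are group means. Separate groups were a condition for being drawn, and several of the genes on the left lie near 0 with DMSO.

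The 31 members called higher included several beside a coding gene that rose too. AC144652.1 (chr7:155295918-155297541, minus strand), chosen after its values were seen, starts 235 bases from INSIG1, which encodes the membrane protein that holds back the sterol regulatory element binding proteins, and runs the other way. The member had 1.56, 1.05 and 1.81 FPKM with DMSO and 3.57, 3.93 and 4.27 FPKM with PD, a rise of 1.00 ± 0.14 (adjusted p = 0.00304). INSIG1 had 7.62, 7.47 and 7.84 FPKM with DMSO and 67.9, 64.4 and 73.4 FPKM with PD, a rise of 3.01 ± 0.08 (adjusted p = 1.24e-05). The genes on either side of the promoter shown above thus both rose, with separate groups.

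AC026803.2 (chr19:48963975-48965158, plus strand) lies between BAX, a driver of apoptosis that ends 2177 bases before it, and FTL, the light chain of ferritin, which starts 143 bases after it, all on one strand. It had 0.344, 0.868 and 0.778 FPKM with DMSO and 6.47, 5.85 and 3.81 FPKM with PD, a rise of 1.93 ± 0.20 (adjusted p = 0.00101). FTL rose by 1.23 and BAX by 0.47. AL645608.7, 911 bases after HES4, had 0.406, 0.984 and 0.597 FPKM with DMSO and 4.81, 5.24 and 2.85 FPKM with PD (1.66 ± 0.22, adjusted p = 0.00226). HES4, a transcriptional repressor of the hairy and enhancer of split family, rose by 1.36. AC020661.1, 2836 bases after VPS18, a subunit of the complexes that tether vesicles to lysosomes, rose by 1.42 ± 0.15 (adjusted p = 0.00101), and VPS18 by 0.94. AC026803.2 and AL645608.7 passed the level rule only through PD, and separate groups were a condition for naming all 3.

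AC009041.2, chosen after its values were seen, starts 212 bases from SOX8, a transcription factor gene, and runs the other way. Having passed the level rule only through PD, it had 0.383, 0.405 and 0.551 FPKM with DMSO and 2.23, 2.55 and 2.12 FPKM with PD, a rise of 1.19 ± 0.12 (adjusted p = 0.000963). SOX8 had 1.23, 1.30 and 1.85 FPKM with DMSO and 8.40, 7.96 and 6.40 FPKM with PD and rose by 1.80 ± 0.14. The member shares 174 exonic bases with LMF1 on its own strand, which differed by -0.04 (adjusted p = 0.909). AL365181.2, 386 bases from BCAN, also chosen after its values were seen, rose by 1.08 ± 0.13 (adjusted p = 0.00145).

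At some other members called higher a nearby gene rose too, as at MIR22HG with WDR81 and at AC012557.1 with PSMD6, named below. The members given here are described without such a partner. AL442638.1 had 5.49, 2.72 and 2.63 FPKM with DMSO and 12.6, 12.4 and 13.8 FPKM with PD, on 11 to 20 and 45 to 49 reads (1.65 ± 0.22, adjusted p = 0.00238). LINC01474 rose by 1.61 ± 0.21 (adjusted p = 0.00229), and its nearest coding gene, ALDH1A1, a retinaldehyde dehydrogenase, starts 206333 bases away and fell by 0.85. AC090617.5 (1.95, on 1 to 10 and 27 to 40 reads), AC120498.4 (1.57, on 0 to 3 and 11 to 15 reads), AC003092.2 (1.57, on 0 to 1 and 9 to 25 reads) and AF241725.1 (1.53, on 3 to 8 and 22 to 32 reads) rose on few reads. AC098479.1 had 3, 7 and 0 reads with DMSO and 11, 20 and 11 with PD, a difference of 1.74 ± 0.45 (adjusted p = 0.028). Its adjusted p was 0.0568 without PD replicate 1 and 0.0958 without PD replicate 2, and 0.0701 without both DMSO replicate 1 and PD replicate 3.

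Counts of rises and falls were set out by position relative to coding genes. Head-to-head pairs start within 2000 bases of each other and run apart, and the classes of members after the end of a coding gene, before its start and with a single exon were chosen after values were seen. Differences between these classes were not tested. Of 106 members that begin within 10000 bases after the end of a coding gene on the same strand, 28 rose (26.4%) and 6 fell (5.66%), with 9 called higher and 0 lower. Of the other 419, 56 rose (13.4%) and 73 fell (17.4%), with 22 called higher and 11 lower. Within 5000 bases of the end, 15 of 51 rose and 0 fell, and beyond that 13 of 55 rose and 6 fell. The median member of this class lay 0.18, 0.34 and 0.11 above the DMSO mean on the log2 scale in PD replicates 1 to 3, and that of the other 419 lay at -0.02, 0.03 and -0.05. These medians include members that entered only through PD. Over the 57 at the level in every sample the class lay at 0.07, 0.22 and 0.03, and its median difference was 0.05, against 0.21 over all 106.

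Counts were also set out by exon number. Of 166 single-exon members, 38 rose (22.9%) and 10 fell (6.02%), and of 359 with several exons 46 rose (12.8%) and 69 fell (19.2%). Single-exon members after an end counted 55, of which 19 rose and 0 fell. Among members at the level in every sample, none of which entered through 1 group alone, 10 of 57 after an end rose and 3 fell, and 20 of 96 with a single exon rose and 6 fell. The remaining members of that kind gave 30 rises and 38 falls among 231, and 20 rises and 35 falls among 192 with several exons. Of 92 members head to head with a coding gene, 9 rose (9.78%) and 16 fell (17.4%), and of 75 that end within 10000 bases before a coding start on their strand, 16 rose and 9 fell.

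**Figure D4:**
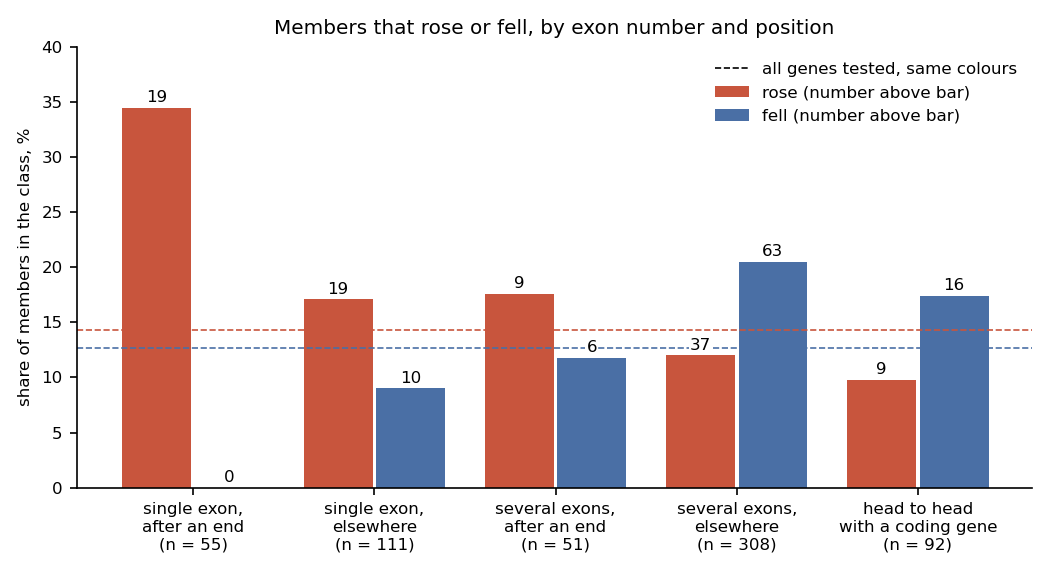
Share of members that rose (red) and fell (blue) by exon number and by whether the member begins within 10000 bases after the end of a coding gene on the same strand, with the head-to-head class, whose members also belong to the other bars, on the right. Numbers of members stand above the bars, dashed lines give the 14.3% and 12.7% of all genes tested, and the single-exon class after an end has 19 rises and no fall.

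These class counts moved with the samples and the scaling used. With equal totals, 25 members after an end rose and 9 fell, and 29 single-exon members rose and 17 fell. Of the members after an end, between 18 and 29 rose and between 2 and 5 fell when 1 sample was left out; rises were 18 without PD replicate 2, and falls were 2 on dropping DMSO replicate 2 or 3 or PD replicate 1 or 2, and 3 on dropping DMSO replicate 1. Of the single-exon members, between 20 and 38 rose and between 4 and 11 fell. Rises there were 25 and 20 on dropping DMSO replicates 2 and 3, and 21 on dropping PD replicate 2. Falls were 4 on dropping replicate 2 of either group, and 5 on dropping DMSO replicate 3 or PD replicate 1. A table with 1 value per gene does not show where in a member its reads lay.

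Members and their partners were compared side by side, as a description, since both values come from the same 6 libraries. Over 98 members after an end whose coding gene was tested, Pearson's r between their differences was 0.39 (Spearman's rho 0.34). In 9 pairs both rose, in 17 the member rose and the coding gene did not pass, and in 1, AL645940.1 after VPS52, the member rose and the coding gene fell. In 10 the coding gene rose and in 10 it fell while the member did not pass, and in 48 neither passed. Of all genes tested, 14.3% rose and 12.7% fell. Some of these members, such as AL645608.7, entered only through PD and had to differ. Besides those named above, both rose, among others, at AC012557.1 and PSMD6, a proteasome subunit gene, at AC104695.2 and FOSL2, an AP-1 subunit gene, and at AL139412.1 and MEF2D, a muscle and nerve transcription factor gene, all chosen after their values were seen. Before a same-strand start, r was 0.59 over 58 pairs (rho 0.48).

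Over 87 head-to-head pairs r was 0.54 (rho 0.39), with 2 in which both rose (AC009041.2 with SOX8 and AC144652.1 with INSIG1) and 2 in which both fell (LINC02587 with MEOX2 and TRAM2-AS1 with TRAM2). In 13 pairs the member fell and the coding gene did not pass, in 14 the coding gene rose and the member did not pass, and in 41 neither passed. The shares of all genes tested were 14.3% for rises and 12.7% for falls. AC009041.2 and LINC02587 reached the level in a single group and had to differ. TRAM2-AS1 and the next pair were chosen after their values were seen. AC007114.1 and AKAP1, 68 bases apart, moved in opposite directions: the member fell by 0.53 (adjusted p = 0.0402) and AKAP1, a mitochondrial anchor of protein kinase A, rose by 0.52 (adjusted p = 0.00666). For the nearest coding gene at any distance r was 0.38 over 424 pairs, and where the starts lay more than 50000 bases apart it was 0.13 over 117.

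**Figure D5:**
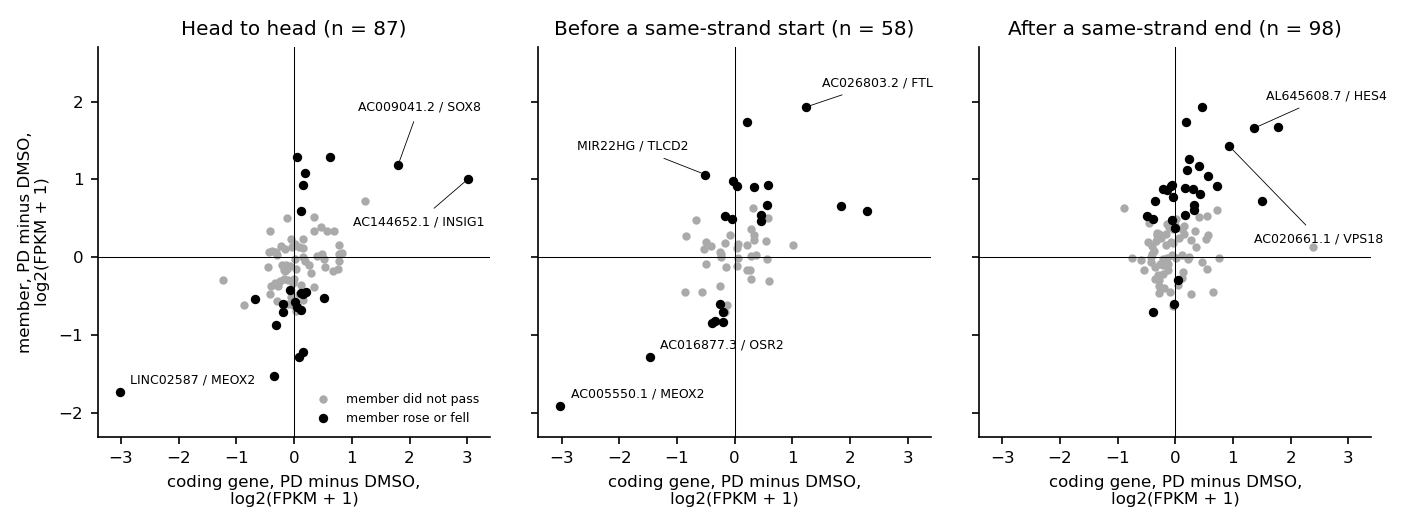
Difference between PD and DMSO in a member (vertical axis) against that of its coding partner (horizontal axis), both on the log2(FPKM + 1) scale, for head-to-head pairs (left), members before a same-strand start (middle) and members after a same-strand end (right). Black points are members that rose or fell; LINC02587 and AC005550.1 lie at the lower left with MEOX2, and INSIG1 lies furthest right among the labelled partners that rose.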

How the data were processed

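RNA was measured by sequencing of stranded mRNA libraries from 6 samples of AZ-521 cells, 3 per group, per the labels' protocols. The authors deposited 1 table with FPKM values per gene. For aligner, counting program and strand setting, nothing was given in the sources used here. Mouse builds, GRCm38 and mm10, stand in the submitters' processing notes, but all 58735 identifiers have the coordinates of GENCODE 29 (GRCh38) and 0 are mouse identifiers. All 6 sample columns were used, matched to samples by group and number.

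FPKM times gene length gave whole reads for 100% of values (tolerance 0.01). Values were tested as log2(FPKM + 1), which understates the change of low genes, using R 4.3.3 and its package limma 3.58.1 (trended variance, no covariate, two-sided) over 13579 genes with at least 1 FPKM in at least 3 samples. The fit was tested on simulated reads, with a single fixed spread and with changes put only into genes above a minimum of reads. That run does not show how calls behave in members with the fewest reads. Differences are PD minus DMSO. Named members were up to 12 called per direction with separate groups, the 10 with the highest mean, members of fixed lists and microRNA hosts named for them, and those nearest the threshold; others are marked, and 1 result that this rule takes is not reported here. Members and lists were chosen with earlier results of these data known. Alternatives changed the pseudocount, filter, scaling, weights, genes and samples, with voom on the recovered reads. A count model planned for raw counts was not used. Positions come from GENCODE 29, sequences from RefSeq, and figures from matplotlib 3.10.9.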

Additional observations from a re-analysis of the deposited data

How the results depend on the processing

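Many named members were chosen because they were called, and some after their values were seen, so that choice fixed that they passed. Those that reached the level in a single group also had to differ. Of 53 named members, 39 passed, and 33 of these passed with the same sign in every setting in which they were tested. That was 18 to 20 settings per member, as members at low levels or with few reads dropped out of the stricter filters. For the other 6, the report gives the losses on leaving out samples, and further losses were these. With no filter the adjusted p was 0.0739 for NORAD, 0.0795 for AC015813.1, 0.0787 for LINC00467, 0.125 for MIR503HG and 0.0966 for AC098479.1. With equal totals it was 0.0672 for NORAD and 0.0739 for AC015813.1, and with quantile scaling 0.143, 0.0740 and, for LINC00467, 0.0516. AC098479.1 was at 0.0840 with a pseudocount of 0.1, and MIR503HG at 0.0809 by voom and 0.0532 with a mean of at least 1 FPKM. With a replicate block all but AC098479.1 were lost (0.0512 for AC015813.1, 0.122 for NORAD, 0.125 for LNCAROD, 0.126 for MIR503HG and 0.153 for LINC00467). Of the 163 members that passed, between 85 (no filter) and 163 passed again where all were tested, with none reversed in any setting.
Called members numbered 52 higher and 34 lower with a pseudocount of 0.1, 47 and 23 with 0.5, 55 and 40 by voom on whole reads, and 6 and 5 with a mean of at least 5 FPKM. They numbered 16 higher with at least 10 reads in every sample, a setting chosen after seeing the data, and 18 lower with equal totals. Equal totals shifted the median of all genes by -0.10, and the share of called members that were higher was 60% there against 73.8%.
Rises and falls numbered 51 and 34 with no filter, 14 and 13 with a mean of at least 5 FPKM, and 133 and 121 with array weights. After a coding end they numbered 17 and 3 with no filter and 3 and 1 with a mean of at least 5 FPKM, with 3 falls at a mean of at least 1 FPKM and 12 with array weights. Single-exon members gave 19 and 2 with no filter and 6 and 2 with a mean of at least 5 FPKM, with 17 falls with equal totals, 22 with array weights and 16 when only coding, lincRNA and antisense genes were tested. The higher minimum and the lack of a filter change the number of genes tested; the causes of the other shifts were not tested.
Between samples with the same replicate number, deviations from the group mean had correlations of -0.39, 0.17 and -0.16. Between samples with different numbers they ran from -0.34 to 0.38. Deviations also went with GC content, so these correlations cannot show whether the numbers pair the samples. With a replicate block, 56 members rose and 39 fell, 2 after a coding end fell, and 24 single-exon members rose and 6 fell.
Leaving out 1 sample gave 52 to 84 rises and 40 to 64 falls, where dropping both DMSO replicate 1 and PD replicate 3 gave 94 and 71, 28 to 34 called higher and 10 to 15 lower, 18 to 29 rises and 2 to 5 falls after a coding end, and 20 to 38 rises and 4 to 11 falls in single-exon members.
Signs reversed only in members that did not pass. The ranges given next are over the fits without any 1 sample and the fit without both DMSO replicate 1 and PD replicate 3. The difference ran from -0.0566 to 0.117 in MIR4458HG, from -0.256 to 0.142 in MIR4713HG and from -0.00554 to 0.126 in MIR99AHG. It ran from -0.144 to 0.101 in NEAT1, from -0.0328 to 0.187 in PURPL and from -0.368 to 0.00711 in SFTA1P. With equal totals it was -0.00403 in MIR4458HG, -0.0500 in MIR99AHG and -0.00882 in PURPL, and with array weights -0.0136 in MIR4458HG, 0.252 in MIR4713HG and 0.0239 in NEAT1. With a median of 36.5 reads per member, counting error limits what differences could be detected in most members.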
